A study of Mus musculus with 2 samples.

Results

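The genes of fatty acid uptake and oxidation were examined in the RNA of 2 mouse hearts. The set holds 39 genes, chosen by symbol from knowledge of the pathway, out of 55450 mouse genes in the tables; all 39 symbols were found. They fall into 6 steps: uptake with 6 genes, activation with 5, the carnitine shuttle with 6, mitochondrial beta oxidation with 16, thioesterases with 3 and control by malonyl-CoA with 3. Both animals were adult females of the strain B6CASTF1/J, the hybrid of a C57BL/6J and a CAST/EiJ parent, aged 8 to 10 months. Replicate 1 is the animal that the labels number 1 and replicate 2 the animal that they number 3. Neither carried a named engineered allele or treatment in the labels, and the series has this 1 group only, so the question the data answer is how the pathway was set in this heart and how far 2 animals differed.

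A heart muscle cell draws much of its energy from long-chain fatty acids. These enter through membrane transporters and binding proteins, are joined to coenzyme A, cross the mitochondrial membranes bound to carnitine, and are shortened in a repeating cycle that yields acetyl-CoA and reduced electron carriers. Malonyl-CoA blocks the entry step into mitochondria, and thioesterases release the free acid from its coenzyme A ester.

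Values are TPM, a level corrected for transcript length and library size, from the deposited gene tables unless another table is named. The libraries held 42223411 and 40553237 expected counts. With 2 animals an exact sign-flip test cannot give a two-sided p under 0.5, so no p-value is given and a difference is read against the spread of the 2 animals and against all genes. The cardiac label was matched by its markers: all 8, among them Myh6 and Tnnt2, were expressed, with a median of 3606 ± 167 TPM (SD, n = 2). Of 4 liver markers 1 was expressed, and the list summed to 1.33 and 1.59 TPM, with Alb at 0.020 and 0. Of 7 adipocyte markers, 3 were expressed, with Adipoq at 0.91 and 1.03 TPM. Of 4 brown adipocyte markers, 2 were expressed, and the list summed to 54.8 and 45.8 TPM. All 8 endothelial, 6 macrophage and 5 fibroblast markers were expressed. Of 7 skeletal muscle markers 5 were, with a sum of 1584 and 1412 TPM, most of it from Ckm, which the heart also expresses, at 1445 and 1303. The tissue was bulk heart, so fewer cells of a type and less RNA per cell cannot be told apart.

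The pathway was almost wholly expressed and stood high in the transcriptome. At 1 TPM or more in both animals, the threshold used for expression, stood 37 of the 39 genes; the other two were Slc27a6 and Cpt1c. Of all protein-coding genes, 48.8% passed the same threshold. At 100 TPM or more in both animals stood 20 members, against 484 of 10703 expressed nuclear protein-coding genes (4.52%). The expressed members had a median of 144 TPM, while the median expressed nuclear protein-coding gene had 7.96 TPM. The 39 genes together made up 2.78% ± 0.05 (SD, n = 2) of the TPM of nuclear protein-coding genes. By expected counts, which give more weight to long transcripts, their share was 2.11% ± 0.01.

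The levels were uneven between steps. Beta oxidation had the highest median, 358 ± 27.6 TPM (SD over the 2 animals, as below), and its 16 genes all stood between 77 and 956 TPM. The SDs are of plain TPM and so include the lower level of the median gene in replicate 2. As a share of nuclear protein-coding TPM, the 16 genes held 1.62% in replicate 1 and 1.61% in replicate 2. The medians of the other steps were lower: 64.5 ± 5.92 TPM for the carnitine shuttle, 42.7 ± 2.01 for uptake, 38.6 ± 6.34 for thioesterases, 35.5 ± 2.69 for malonyl-CoA control and 3.34 ± 0.51 for activation. Summed TPM, which grows with the number of genes in a step, gave another order. Its means were 5746 for beta oxidation, 2915 for uptake, 573 for the carnitine shuttle, 337 for activation, 198 for thioesterases and 126 for malonyl-CoA control. Over expressed members only, the medians of uptake and the carnitine shuttle were 69.4 and 109 TPM. Over coding transcripts only, an alternative added after seeing the data, uptake fell to 21.04 TPM, below thioesterases (38.6) and malonyl-CoA control (35.1), while beta oxidation stayed highest. In the 5 steps other than beta oxidation, 1 or a few genes carried most of the level while relatives stood far lower. In beta oxidation no member was under 10 TPM, whereas 9 members of the whole set were under it in both animals.

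**Figure D1:**
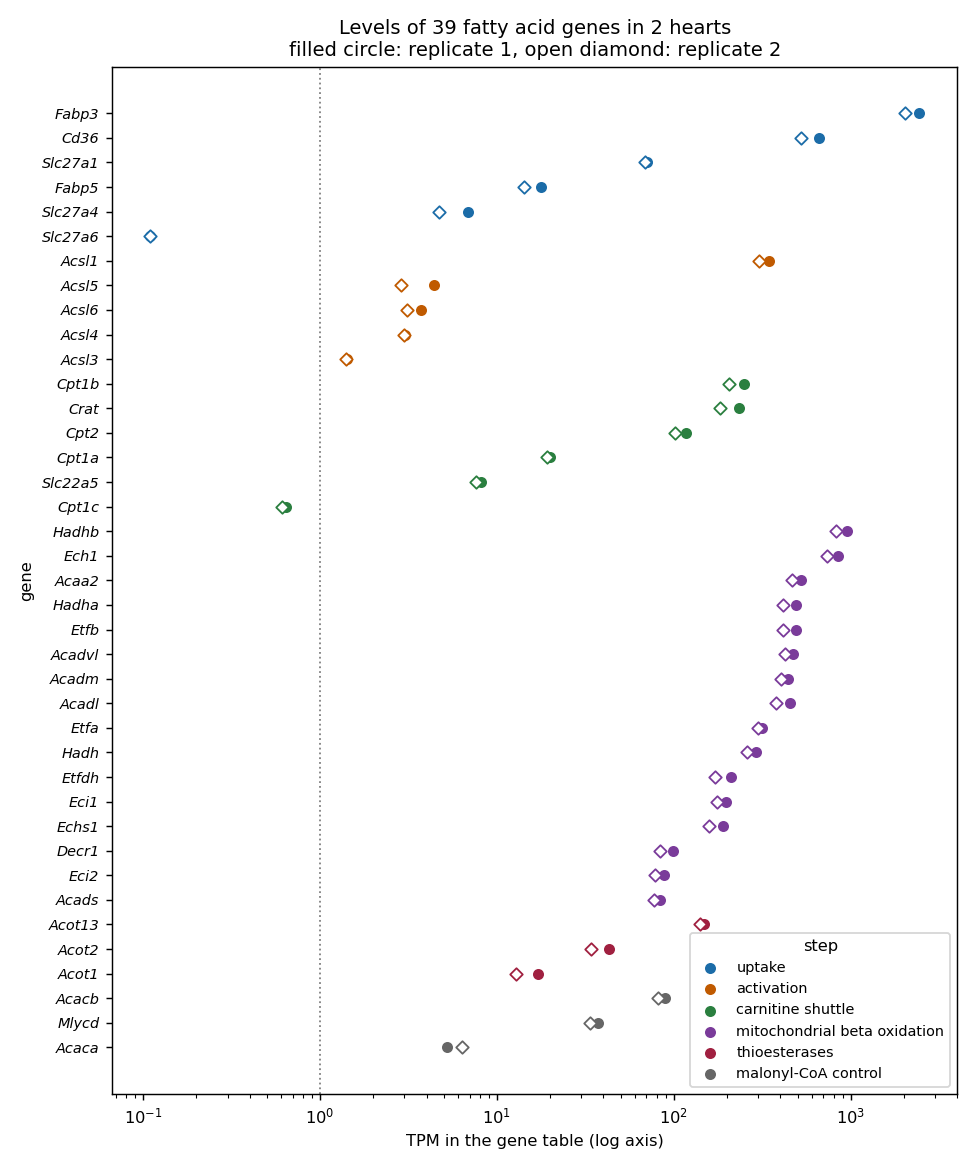
TPM of each of the 39 genes in the gene table (log axis), by step and in order of mean level; filled circles are replicate 1, open diamonds replicate 2, and the dotted line marks 1 TPM. The 16 beta oxidation genes lie between 77 and 956 TPM, whereas the other steps reach from 0.11 TPM (Slc27a6) to 2431 TPM (Fabp3).

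Among the uptake genes, Fabp3 led. It encodes the fatty acid binding protein of heart and muscle, which carries fatty acids through the cytosol. Fabp3 (chr4:130308595-130315463, mm10) stood at 2431 TPM in replicate 1 and 2029 TPM in replicate 2 and ranked 13 of 21938 nuclear protein-coding genes by mean level. Its relative Fabp5, known from skin and endothelium, stood at 17.6 and 14.2 TPM. The level of Fabp3 was thus 140-fold that of Fabp5, with a log2 ratio of 7.13 ± 0.03. Of the Fabp3 sequence, 37.3% of its words of 31 bases also occur in other genes, nearly all of them in the processed pseudogene Fabp3-ps1, to which the tables gave 4.55 and 5.85 TPM.

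Cd36, the membrane fatty acid translocase, was the second most abundant uptake gene. It stood at 664 and 524 TPM and ranked 69. Of its TPM, 34.0% ± 0.015 was assigned to Cd36-205, a coding transcript of 702 bases, which took 10.4% ± 0.007 of its expected counts; the longer Cd36-203 took 37.7% ± 0.78 of TPM and 49.5% ± 1.01 of counts. The remaining transcript past 10% of the gene's TPM was Cd36-202, at 10.2% ± 0.59.

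The 3 fatty acid transport proteins of the Slc27 family, which take up and activate long-chain fatty acids, spanned a wide range. Slc27a1, the form known from muscle and fat, stood at 70.6 and 68.3 TPM. Slc27a4, a broadly expressed form, stood at 6.86 and 4.70 TPM. Slc27a6, which has been described as a heart form, stood at 0.11 TPM in both animals, from 9 counts in each library. Slc27a1 was 12.2-fold above Slc27a4 (log2 3.61 ± 0.35). It was 579-fold above Slc27a6, a log2 ratio of 9.18 that rests on those 9 counts and on the 0.01 TPM added to both levels, and that was 5.99 with 1 TPM added. The form described for heart was thus the lowest of the 3.

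Much of the Slc27a1 signal lay on noncoding transcripts, by which is meant here every transcript not annotated as protein coding, forms marked for nonsense-mediated decay included. They took 61.7% ± 0.99 of its TPM and 55.5% of its counts, and 49.0% ± 1.34 of its TPM in the second transcript table. The highest were the retained introns Slc27a1-202 (23.5% ± 1.09) and Slc27a1-205 (18.0% ± 1.12) and the processed transcript Slc27a1-208 (16.6% ± 0.016). The coding Slc27a1-207 and Slc27a1-201 took 20.2% ± 1.18 and 16.6% ± 0.60. On coding transcripts alone, Slc27a1 exceeded Slc27a4 by 2.26 on the log2 scale instead of 3.61.

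Activation rested on 1 gene. Acsl1, the main long-chain acyl-CoA synthetase of heart, fat and liver, stood at 345 and 305 TPM and ranked 162. The other members of the family, which differ in the acids they prefer and in where they act, were all under 5 TPM. Acsl3 stood at 1.42 and 1.41 TPM, Acsl4, which prefers arachidonic acid, at 3.01 and 2.98, Acsl5 at 4.41 and 2.88, and Acsl6 at 3.70 and 3.12. Acsl1 was 90.8-fold above Acsl5, 95.2-fold above Acsl6, 108-fold above Acsl4 and 228-fold above Acsl3; the log2 ratio to Acsl3 was 7.83, and 7.07 with 1 TPM added to both levels or 7.22 by posterior mean TPM. The 4 lower genes thus held little of the family's RNA in either animal.

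The activation transcripts were split between full-length and short forms. Acsl1-201, of 3897 bases, took 65.9% ± 0.94 of the TPM of Acsl1, and the 368-base coding Acsl1-205 took 27.7% ± 0.70 of its TPM but 2.68% ± 0.09 of its counts. In the FASTQ-derived table, a second transcript quantification made from reads rather than alignments, Acsl1-205 took 11.4% ± 0.61 and the noncoding Acsl1-209, at 0 in the first table, took 21.4% ± 1.19; Acsl1-203 took 15.8% ± 1.65. The main transcripts of the other genes were Acsl3-205 (82.7% ± 14.4), Acsl4-203 (52.2% ± 4.50) with Acsl4-201 (47.8% ± 4.50), Acsl5-201 (72.4% ± 11.6) and Acsl6-205 (49.5% ± 5.65). Acsl3-201 took 10.9% ± 5.44, and the 455-base Acsl5-203 25.03% ± 7.90. Acsl4-204 was at 0 in the alignment-derived table and took 21.1% ± 2.90 in the FASTQ-derived table. Within the alignment-derived table, the shares named for these low genes varied more between the animals than those of Acsl1.

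In the carnitine shuttle, the muscle form of the entry enzyme prevailed. Cpt1b, which joins fatty acids to carnitine at the outer mitochondrial membrane of muscle, stood at 248 and 206 TPM. Cpt1a, the liver form, stood at 19.8 and 19.1 TPM, and Cpt1c, the form known from brain, at 0.64 and 0.61 TPM from 55 counts in each library. Cpt1b was 11.6-fold above Cpt1a and 356-fold above Cpt1c; with 1 TPM added instead of 0.01, the log2 ratio to Cpt1c fell from 8.47 to 7.12. Of the words of Cpt1b (chr15:89416405-89425863), 79.7% occur also in Gm44502, a gene of the annotation on the same minus strand that begins upstream of Cpt1b and ends at the same base; the tables gave Gm44502 5.27 and 3.99 TPM. The assignment of reads between this pair cannot be checked in the tables.

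Downstream of the entry enzyme, Cpt2, which returns the acyl group to coenzyme A inside the mitochondrion, stood at 117 and 101 TPM. Crat, which moves acetyl and other short groups between carnitine and coenzyme A, stood at 234 and 183 TPM, the level of Cpt1b. Slc22a5, the carnitine importer of the plasma membrane, was far lower at 8.12 and 7.58 TPM; 37.8% of its words occur in other genes, mostly in its relative Slc22a21 at 0.70 and 0.55 TPM. The carrier that exchanges acylcarnitine across the inner membrane, Slc25a20, is not in the set of 39 and stood at 75.4 and 65.5 TPM.

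Full-length coding transcripts led in these genes: Cpt1b-201 with 86.3% ± 2.57 of the gene's TPM, Cpt2-201 with 65.4% ± 3.27, Cpt1a-201 with 64.9% ± 2.00, Slc22a5-201 with 83.2% ± 4.06 and Cpt1c-201 with 76.6% ± 1.67. The 659-base Cpt1a-205 took 31.2% ± 1.08 of TPM and 5.94% ± 0.34 of counts. Cpt2-203 took 18.1% ± 1.11 of the TPM of Cpt2 and the retained intron Cpt2-206 15.9% ± 1.54; in the FASTQ-derived table Cpt2-205 took 12.1% ± 1.60 instead. The noncoding Slc22a5-202 took 14.8% ± 4.32. Slc22a5-203 took 12.0% ± 0.34 in the FASTQ-derived table, Cpt1b-203 21.6% ± 0.24 and Cpt1c-203 25.2% ± 4.14. Crat split between Crat-201 (51.0% ± 5.28), Crat-202 (23.5% ± 1.67) and the 274-base noncoding Crat-210 (13.5% ± 2.90), and in the FASTQ-derived table Crat-202 led with 46.3% ± 1.42 against 42.5% ± 2.59 for Crat-201.

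In beta oxidation the first step is taken by acyl-CoA dehydrogenases that differ in the chain length they accept. Acadvl, for very long chains, stood at 473 and 423 TPM, Acadl, for long chains, at 451 and 379, and Acadm, for medium chains, at 441 and 404. These 3 were at one level: the log2 ratio to Acadvl was -0.11 ± 0.06 for Acadl and -0.08 ± 0.03 for Acadm. The sign of the Acadl ratio turned when only coding transcripts were summed (0.054) or when counts were divided by the length of the longest coding transcript (0.014). Acads, for short chains, was lower at 84.0 and 77.1 TPM, with a log2 ratio to Acadvl of -2.47 ± 0.03.

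The main transcripts of the dehydrogenases were full-length: Acadvl-202 took 79.5% ± 1.97, Acadl-201 89.7% ± 1.28, Acadm-201 82.4% ± 2.66 and Acads-201 99.3% ± 0.69 of their genes' TPM. The retained intron Acadvl-203 took 17.3% ± 2.30 and the noncoding Acadl-202 10.3% ± 1.28. In the FASTQ-derived table Acadvl-207 took 13.8% ± 0.86 and Acadm-210 13.2% ± 0.10, both retained introns.

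The mitochondrial trifunctional protein, which carries out the later steps for long chains, is built of the subunits Hadha and Hadhb. Hadhb, the thiolase subunit, stood at 956 and 821 TPM, ranked 41 and was the highest gene of the cycle. Hadha, with the hydratase and dehydrogenase activities, stood at 489 and 411 TPM. The log2 ratio of Hadha to Hadhb was -0.98 ± 0.02, close to a difference of 2-fold, although the expected counts of the 2 genes were nearly equal (-0.06); TPM divides counts by transcript length. On coding transcripts alone the ratio was -2.30.

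The pair is read from opposite strands of chromosome 5, Hadha (chr5:30118304-30155162, minus strand) and Hadhb (chr5:30155248-30184593, plus strand), with 85 bases between them (GENCODE M21, mm10). The RefSeq starts of the 2 genes lie 272 bases apart, so the extent of the region depends on the annotation. The GENCODE interval is shown because it separates the subunits as annotated in the tables. It is given on the plus strand, with its 9 CG pairs in capitals, from RefSeq promoter sequence of GRCm38.p6.
Hadha-Hadhb interval, chr5:30155163-30155247: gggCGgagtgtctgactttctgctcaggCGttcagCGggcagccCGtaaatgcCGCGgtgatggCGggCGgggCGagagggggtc
G and C made up 69.4% of these 85 bases. The median of all promoter windows, which are longer at 250 bases before each RefSeq start, was 52.4%.

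Both genes of the pair had a large part of their TPM on noncoding transcripts. Hadha-201, a 2552-base form annotated as a processed transcript without a coding sequence, took 69.1% ± 0.49 of the TPM of Hadha and 59.6% ± 1.67 of its counts. The coding Hadha-205, of 4017 bases, took 29.1% ± 1.95 of TPM, and 16.0% ± 0.20 in the FASTQ-derived table, with Hadha-201 at 71.8% ± 1.201 and the 323-base Hadha-204 at 11.5% ± 1.02. For Hadhb, the 507-base retained intron Hadhb-208 took 27.4% ± 0.13 of TPM and 7.40% ± 0.03 of counts, and 42.9% ± 2.02 of TPM in the FASTQ-derived table. Its coding forms Hadhb-201 and Hadhb-203 took 47.8% ± 3.07 and 23.5% ± 2.73 in the alignment-derived table, whereas the FASTQ-derived table gave 3.65% ± 2.58 and 47.3% ± 3.95. The processed pseudogene Gm13910 shares 19.5% of the words of Hadhb and was listed at 104 and 87.8 TPM, from 4625 and 3951 counts, on chromosome 2. The tables do not show how reads that fit both were divided.

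For chains that have been shortened, Hadh, the dehydrogenase of the third step, stood at 292 and 260 TPM, and Echs1, the hydratase of the second, at 190 and 159. Acaa2, a mitochondrial thiolase, stood at 520 and 465 TPM and ranked 96. Hadhb was 1.80-fold above Acaa2 (log2 0.85 ± 0.04). Hadh-201 took 99.3% ± 0.16 and Echs1-201 97.9% ± 2.59 of their genes' TPM, while Acaa2 split into Acaa2-201 (71.0% ± 0.031) and the 504-base coding Acaa2-202 (29.0% ± 0.031 of TPM, 10.5% ± 0.014 of counts).

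Unsaturated fatty acids need auxiliary enzymes, and all 4 in the set were expressed. Ech1, an isomerase for dienoyl-CoA, stood at 852 and 733 TPM and ranked 48, second only to Hadhb in the cycle. Eci1 and Eci2, isomerases for enoyl-CoA, stood at 196 and 175 TPM and at 88.2 and 78.7 TPM, a ratio of 2.22-fold. Decr1, the dienoyl-CoA reductase, stood at 98.4 and 84.0 TPM. Ech1 was thus several-fold above the other auxiliary enzymes in both animals.

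Among these, Ech1-201 took 72.7% ± 0.52 of TPM and the 673-base Ech1-204 22.7% ± 0.98, and Decr1-201 took 99.4% ± 0.29. Eci1 was the member with the largest offset between the tables, 0.50 higher on the log2 scale in the FASTQ-derived table. Its main transcript was Eci1-205 (59.6% ± 3.32) in the alignment-derived table, with Eci1-201 at 12.7% ± 2.68, and the 499-base retained intron Eci1-207 in the FASTQ-derived table (29.5% ± 0.60, against 23.7% ± 0.71). There Eci1-201 took 27.0% ± 1.26, Eci1-205 22.1% ± 3.42 and Eci1-204 20.4% ± 3.40. Eci2 was led by Eci2-211 (55.5% ± 0.53), with the retained intron Eci2-205 at 15.9% ± 3.10 and Eci2-201 at 11.9% ± 0.60.

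The electrons of the first step pass to the electron transfer flavoprotein, of the subunits Etfa and Etfb, and on to Etfdh, which hands them to ubiquinone. Etfa stood at 314 and 297 TPM, Etfb at 487 and 413, and Etfdh at 211 and 170. The log2 ratio of Etfa to Etfb was -0.56 ± 0.11, and by expected counts 0.21. Etfb overlaps Gm45233 on the same strand and shares 47.3% of its words with it, but Gm45233 was listed at 0.29 and 0.49 TPM only. Each gene had 1 leading coding transcript, Etfa-201 (97.0% ± 1.44), Etfb-201 (85.8% ± 8.71) and Etfdh-201 (96.6% ± 1.33).

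Of the thioesterases, Acot13, a small mitochondrial enzyme that hydrolyses acyl-CoA, was the highest at 148 and 140 TPM, with all of its TPM on Acot13-201. Acot2, the mitochondrial enzyme of a cluster of near-copies, stood at 43.1 and 34.1 TPM, all on Acot2-201. Acot1, its cytosolic copy, stood at 17.2 and 12.8 TPM. The 2 genes lie 15616 bases apart on chromosome 12, Acot2 at chr12:83987861-83993873 and Acot1 at chr12:84009490-84018371. Over 1236 aligned coding bases they were 95.3% identical, with 58 differences and an identical run of 273 bases.

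Reads from an identical run fit either gene. The stretch of 60 aligned bases with the most differences between the coding sequences (GENCODE M21) shows where the copies can best be told apart. The 13 positions that differ are in capitals.
Acot1-201, coding bases 823 to 882: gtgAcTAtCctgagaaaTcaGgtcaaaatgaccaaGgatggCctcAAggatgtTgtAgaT
Acot2-201, coding bases 946 to 1005: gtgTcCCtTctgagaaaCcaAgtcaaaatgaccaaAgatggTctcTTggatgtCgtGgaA
These 60 bases hold 13 of the 58 differences. In all, 29.9% of the words of Acot2 occur in Acot1 and 16.7% of those of Acot1 in Acot2.

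The ratio of Acot2 to Acot1 depended on the table more than that of any other paralogue pair listed. It was 2.58-fold in the gene table (log2 1.37 ± 0.06) and 1.62-fold in the FASTQ-derived table (0.70 ± 0.15). On coding transcripts alone it was 2.93 on the log2 scale. The noncoding Acot1-204, of 801 bases, took 66.0% ± 3.30 of the TPM of Acot1, and 77.5% ± 6.499 in the FASTQ-derived table, while Acot1-201 took 17.5% ± 0.88 and Acot1-202 16.3% ± 3.93. Acot2 was the higher of the pair in each of these settings.

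Malonyl-CoA is made by acetyl-CoA carboxylases and broken down by Mlycd. Acacb, the carboxylase at the mitochondrial surface, stood at 88.7 and 81.0 TPM. Acaca, the cytosolic carboxylase of fatty acid synthesis, stood at 5.24 and 6.32 TPM, so Acacb was 14.7-fold higher (log2 3.88 ± 0.28, or 4.61 for counts per kilobase of the longest coding transcript). Mlycd stood at 37.4 and 33.6 TPM, between the carboxylases. Of the words of Acaca, 31.7% occur in the processed pseudogene Gm5182, listed at 0.90 and 0.85 TPM.

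Acacb-202 took 89.0% ± 1.38 of its gene's TPM and Mlycd-201 99.0% ± 0.52; Acacb-201 was at 0 in the first table and at 13.5% ± 2.44 in the FASTQ-derived one. Acaca was split between Acaca-201 (9026 bases, 56.7% ± 1.57 of TPM and 93.6% ± 0.40 of counts), Acaca-203 (21.5% ± 0.056) and the 431-base Acaca-206 (13.3% ± 2.87 of TPM and 0.81% ± 0.20 of counts). In genes with 1 transcript the question did not arise: Fabp3-201 and Slc27a6-201 were the only annotated forms. Fabp5-201 (97.2% ± 1.08) and Slc27a4-201 (97.8% ± 0.75) left little to others.

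**Figure D2:**
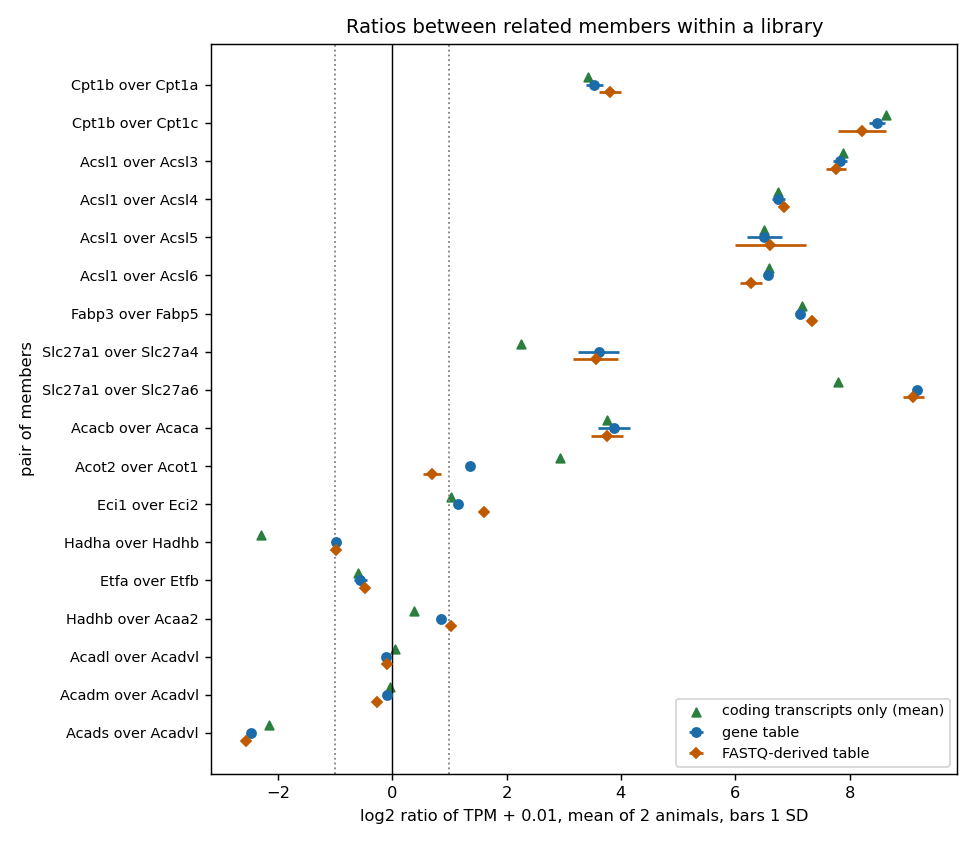
Log2 ratio of TPM + 0.01 between related genes of the set within each library, as the mean of 2 animals with bars of 1 SD, in the gene table (circles) and the FASTQ-derived table (diamonds), and as a mean over coding transcripts only (triangles); dotted lines mark 2-fold. The ratios of Acsl1 to its relatives lie above 6 in both tables, while Hadha over Hadhb falls from -0.98 to -2.30 and Acot2 over Acot1 rises from 1.37 to 2.93 when only coding transcripts are summed.

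Of 18 pairs compared in this way, 13 differed by 2-fold or more in both animals: 12 of 12 paralogue pairs, 0 of 2 pairs of subunits and 1 of 4 pairs of enzymes for different chain lengths. The pairs were chosen with earlier results of these data known, and the share of other gene pairs that differ by 2-fold was not computed, so the count describes these pairs only. The FASTQ-derived table also gave 13, but there Acot2 over Acot1 was under 2-fold and Hadhb over Acaa2 reached a log2 ratio of 1.04. Coding transcripts alone gave 13 as well, with Hadha over Hadhb past 2-fold and Eci1 over Eci2 under it in replicate 1 (0.97, and 1.07 in replicate 2).

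The main transcript was mostly the same in both tables. Of 35 expressed members with at least 2 annotated transcripts, 31 had the same main transcript in both tables, against 81.4% of 9855 expressed nuclear protein-coding genes. The 4 exceptions were Slc27a1, Crat, Hadhb and Eci1. Noncoding transcripts took 10% or more of TPM in both animals in 11 of the 35 in the alignment-derived table (background 37.5%) and in 13 in the FASTQ-derived table (background 40.9%), 10 of them in both. The members were thus near the background in this respect. The share was highest in Hadha (70.9% ± 1.95), Acot1 (66.1% ± 3.05) and Slc27a1 (61.7% ± 0.99).

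**Figure D3:**
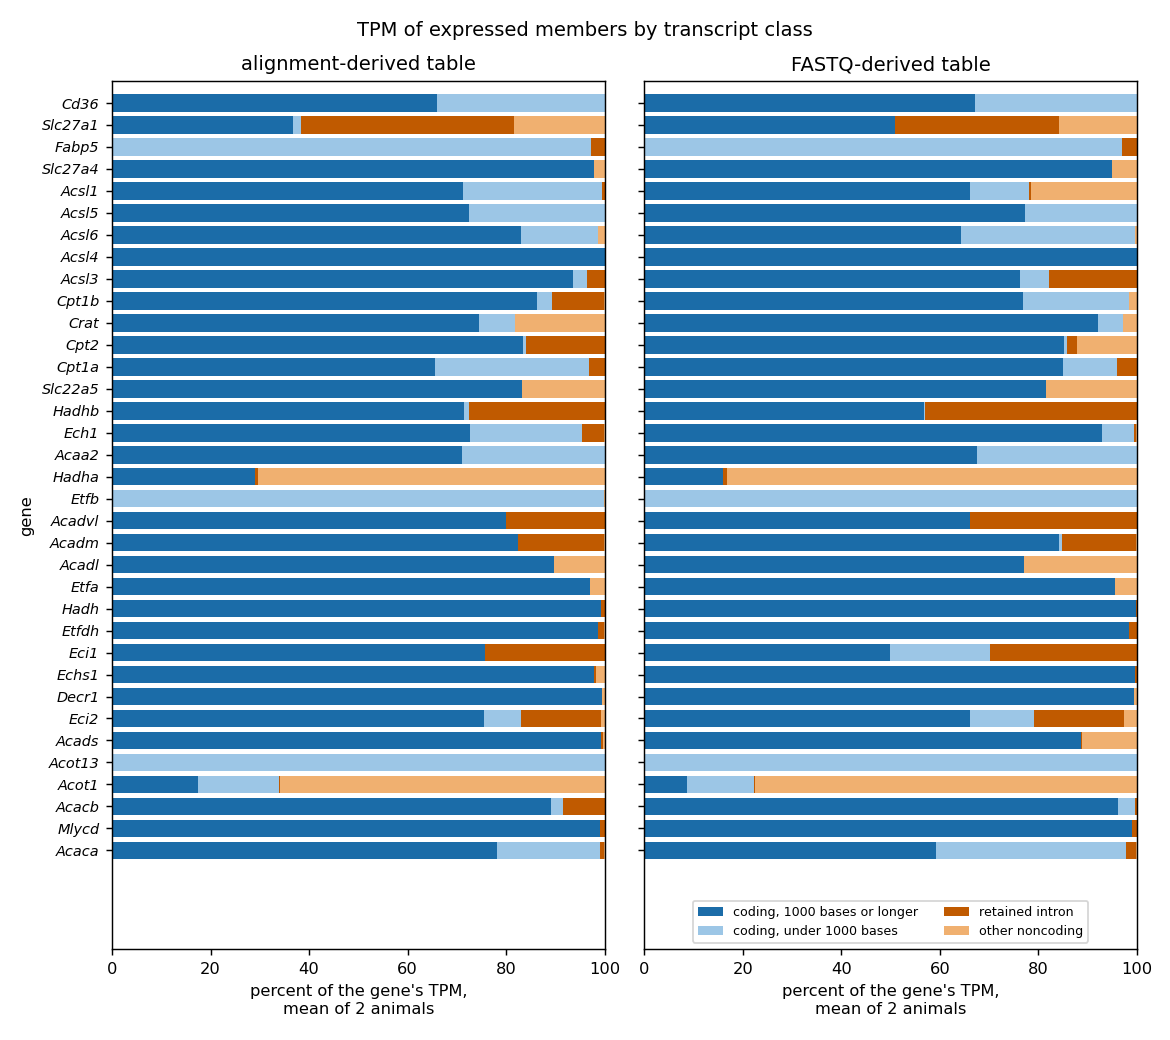
Percent of each gene's TPM on coding transcripts of 1000 bases or longer, shorter coding transcripts, retained introns and other noncoding transcripts, for the 35 expressed members with at least 2 annotated transcripts, as the mean of 2 animals in each transcript table. Hadha, Acot1 and Slc27a1 have most of their TPM on noncoding transcripts in the alignment-derived table; Fabp5, Etfb and Acot13 have only coding transcripts under 1000 bases at a high share.

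Gene totals were steadier than transcripts. None of the 37 compared members differed by 2-fold between the gene sums of the 2 tables in both animals, where 2.36% of 12374 genes were 2-fold higher and 2.85% 2-fold lower in the FASTQ-derived table. The mean log2 offset ran from -0.22 for Acot2 to 0.50 for Eci1, with Acot1 at 0.45 and Acsl6 at 0.43, and had a median of 0.023. Acot1 and Acot2 thus moved in opposite directions between the tables. Of the 39 members, 13 shared no word of 31 bases with another gene, and 10 shared 10% or more; beside those named above these were Eci2 (13.6%) and Etfa (10.8%).

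The 2 hearts differed little in this pathway. By plain TPM, 37 of the 39 members were lower in replicate 2, 1 was higher and 1 was equal, but the median of all 11871 compared genes was also lower, by a log2 ratio of -0.18. Ratios of replicate 2 to replicate 1 were therefore centred on that median. Nuclear protein-coding genes together held 37.8% of all TPM in replicate 1 and 33.3% in replicate 2. After centring, 19 members were below 0 (50% of all compared genes were) and 18 above, with a median of -0.03 and a range from -0.41 for Acsl5 to 0.45 for Acaca. No member was 2-fold apart (background 0.708% higher and 0.708% lower), and none was 1.5-fold apart (background 3.23% higher and 2.55% lower). Within 1.2-fold lay 34 of 37 members, against 73.6% of all compared genes, which include many of lower counts.

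The 3 members outside 1.2-fold were Acaca, Acsl5 and Slc27a4, all under 10 TPM. Acaca was the only member higher in replicate 2 before centring, and its ratio of 0.45 kept its direction in every scaling tried, from 0.27 without centring to 0.45. Acsl5 stood at -0.41, and at -0.79 in the FASTQ-derived table, where it passed 1.5-fold. Slc27a4 stood at -0.35. These are differences between 2 animals and 2 libraries, with no replicate of either.

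Across the steps, the 16 beta oxidation genes were the most even, from -0.13 for Etfdh to 0.10 for Etfa. None of them was low, as the widest members of other steps were, and the evenness of other genes of similar level was not computed. The uptake genes lay lower in replicate 2 in 4 of 5 cases: Slc27a4 at -0.35, Cd36 at -0.16, Fabp5 at -0.12 and Fabp3 at -0.08, with Slc27a1 at 0.14. Of 5 compared uptake genes outside the set, described below, 2 were lower and 3 higher (median 0.0005). Of the 8 endothelial markers, 7 were lower, with a median of -0.23 and a summed level of 443 and 374 TPM, none at 0. The 1 that was higher, at 0.12, was Fabp4, which is also among those uptake genes outside the set. The 4 compared adipocyte markers were all lower (median -0.20, summed level of all 7 of 25.7 and 19.5 TPM), and 4 of 5 fibroblast markers were lower (median -0.04, sum 182 and 153 TPM). Adipoq, whose mean level was too low for it to be compared, was higher in replicate 2. After centring, 4 of 6 macrophage markers were higher (median 0.05), as were 4 of 5 compared skeletal muscle markers (median 0.03). The 8 cardiac markers split into 4 lower and 4 higher. Summed TPM, which is not centred, was lower in replicate 2 for these lists too, so the sums do not set the lists apart. It was 61.7 and 51.7 for macrophage, 1584 and 1412 for skeletal muscle and 35543 and 31018 for cardiac markers. Of 3 compared brown adipocyte markers, 2 were lower and 1 was higher, at 1.06. The 1 compared liver marker was higher, at 0.29. The part of these markers in the result was not tested. In the carnitine shuttle, Crat stood at -0.17, Cpt1b at -0.08, Cpt2 at -0.03, Slc22a5 at 0.08 and Cpt1a at 0.13. Acot1, Acot2 and Acot13 stood at -0.23, -0.15 and 0.10, and Acsl1 at 0.003.

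Deposited interval bounds, at a level that no source used here gives, allow a reading of the assignment error within each library. After centring, the intervals of the 2 animals overlapped for 27 of the 37 members. They lay wholly lower in replicate 2 for 8 members, Cd36, Slc27a4, Fabp3, Crat, Acadl, Hadha, Etfdh and Acot2, and wholly higher for 2, Slc27a1 and Etfa. Of all compared genes, 6.9% were wholly lower and 5.89% wholly higher. Of the 519 nuclear protein-coding genes averaging at least 100 TPM, the level of most beta oxidation genes, 21% were lower and 21.4% higher. The bounds cover the division of reads in a library, not variation between animals.

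**Figure D4:**
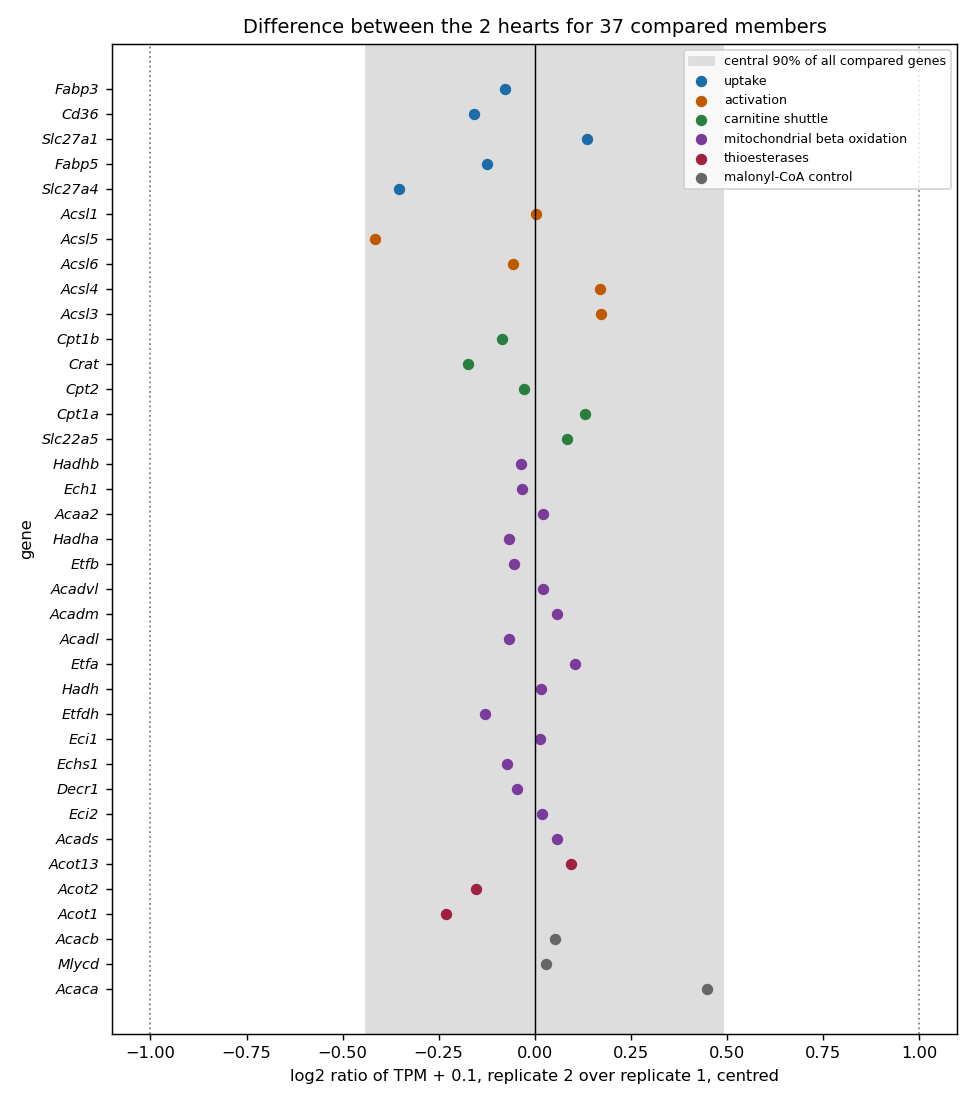
Log2 ratio of TPM + 0.1 of replicate 2 to replicate 1, centred on the median of all compared genes, for the 37 compared members by step; the grey band holds the central 90% of all compared genes and dotted lines mark 2-fold. All 37 points lie inside the band, and Acsl5 (-0.41), Slc27a4 (-0.35) and Acaca (0.45) lie nearest its edges.

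Related genes outside the set had a median of 9.10 ± 1.06 TPM over the 82 found, where the 39 members had 109 ± 11.3. The 82 belong to the same steps, except for 15 of peroxisomal oxidation, which has no member. Of 84 further symbols listed, 82 were found; 57 were at 1 TPM or more in both animals (48.8% of protein-coding genes were), 24 were under 1 TPM in both, and 0 of 57 compared were 2-fold apart between the animals. In uptake, Lpl, the lipase that frees fatty acids from circulating lipoproteins, stood at 1553 and 1291 TPM, above Cd36 and below Fabp3. Got2, a mitochondrial aminotransferase also described as a fatty acid binding protein of the membrane, stood at 306 and 269 TPM, and Fabp4, known from endothelium and fat, at 202 and 194. Fabp4 was thus above Fabp5 and far below Fabp3. Slc27a2, Slc27a3, Slc27a5, Fabp1, Fabp2, Fabp6, Fabp7 and Fabp12 were under 1 TPM in both animals.

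In activation, the acetate-activating Acss1 of mitochondria stood at 104 and 96.5 TPM. Its cytosolic relative Acss2 stood at 12.7 and 10.7, and Acsf3, which activates malonate in mitochondria, at 13.0 and 10.4. Each of these was above all of the long-chain synthetases other than Acsl1. Acsbg1, Acsbg2, Acss3, Acsm1 and Acsm3 were under 1 TPM. In the carnitine step, Slc25a20 was followed by Crot, the peroxisomal carnitine transferase, at 7.25 and 6.59 TPM and by Aldh9a1, of carnitine synthesis, at 7.23 and 6.35. Bbox1, the last enzyme of carnitine synthesis, stood at 0.010 and 0.050 TPM, and Slc22a21 was also under 1 TPM.

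Among other mitochondrial enzymes, Ivd and Acat1, which act in branched-chain amino acid and ketone body metabolism, stood at 141 and 122 TPM and at 115 and 100 TPM, and Hsd17b10 at 93.7 and 87.8. All 3 were below the long- and medium-chain dehydrogenases of the set. Of the 17 mitochondrial genes listed, only Eci3 was under 1 TPM in both animals. In peroxisomes, Phyh, which starts the breakdown of phytanic acid, stood at 312 and 282 TPM, and Scp2, a thiolase and sterol carrier, at 128 and 112. Acox2 and Acaa1b were under 1 TPM.

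The other thioesterases were lower than Acot13 and Acot2: Acot7 stood at 26.4 and 24.4 TPM, Acot11 at 13.7 and 14.9, and Acot9 at 9.90 and 7.70. Acot3, Acot4, Acot5, Acot10, Acot12 and Them5 were under 1 TPM in both animals. Among regulators of the malonyl-CoA step, Mid1ip1, which promotes polymerisation of acetyl-CoA carboxylase, stood at 65.0 and 72.8 TPM. The hydrolases Nudt8 and Nudt7, which act on coenzyme A, stood at 59.2 and 52.3 TPM and at 37.8 and 34.3 TPM. All 9 genes listed for this step were expressed.

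Many genes of fatty acid oxidation are known targets of nuclear receptors, whose core site reads AGGTCA. The 250 bases before each RefSeq start (GRCm38.p6) were searched on both strands. Windows were found for 32 members, 37 windows in all; Cpt1b, Crat, Slc27a6, Fabp5, Decr1, Acaa2 and Acot13 had none. The core site occurred in 7 of the 37 windows (18.9%), those of Acadm, Acadvl, Acsl6, Cd36, Cpt1a, Cpt1c and Echs1, against 14% of 32851 windows of all genes. The sites are shown as the recognisable letters in these genes, with the site in capitals. TGACCT is the same site read on the other strand. Each is printed along the strand of its gene, plus for Acsl6 and Cpt1a. For Acadm, Cd36, Cpt1c, Echs1 and Acadvl this is the minus strand, so their letters begin at the higher coordinate.
Acadm, chr3:153944877-153944893: gTGACCTtcgggctccg
Cd36, chr5:17836109-17836134: ctgcactttaTGACCTgagattttca
Cpt1c, chr7:44974982-44975007: gcagggagggAGGTCAaggctgtttc
Echs1, chr7:140116489-140116514: cagcccgctcAGGTCAcgggtccacc
Acsl6, chr11:54303625-54303650: agtcttcccgTGACCTtgtgtggcct
Acsl6, chr11:54303647-54303672: gcctccaaccTGACCTtgagcattct
Acadvl, chr11:70015500-70015525: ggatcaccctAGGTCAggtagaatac
Cpt1a, chr19:3323197-3323222: gtttccttacTGACCTcctccccgca
The 7 genes ranged from Cpt1c, at 0.64 and 0.61 TPM, to Cd36, at 664 and 524.

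The longer site TNAAGGTCA, which contains the core site, occurred in 1 member window (Acsl6, 2.7%) against 1.14% of all windows. The core site repeated in the same direction with 1 base between was in 0 member windows and 0.0335% of all. The TATA box TATAAA was in 1 member window (Acacb, 2.7%) against 12.4% of all. A match is a run of letters and not a bound site, and a missing match says only that these letters are not in the window.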

How the data were processed

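Heart RNA of 2 animals was sequenced from 300 ng each with a directional kit and ERCC spike-ins, per the labels. The deposited description files name mm10 as the assembly and GENCODE M21 as its annotation. The aligner, the quantifier and the use of strand in counting were not given in the sources used here. Of the members, 14 overlap a gene on the opposite strand and 8 one on the same strand. Reads were assigned to the C57BL/6J reference although the animals also carry a CAST/EiJ genome. The gene table and the alignment-derived transcript table hold, per the file headers, expected counts and TPM, and the table derived from FASTQ reads holds TPM and estimated counts. The percent of a gene's TPM on each transcript (IsoPct) and the posterior mean TPM were deposited too, as were interval bounds, read here as a signal on the TPM scale in the deposited files. Depth was 42223411 and 40553237 expected counts and 43782858 and 41468698 estimated counts; without molecular identifiers, reads need not be separate molecules.

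Symbols came from the FASTQ-derived table. Pair ratios used log2(TPM + 0.01). Ratios between animals used log2(TPM + 0.1), which understates differences of low genes, for genes with a mean of 1 TPM and 20 counts over both libraries. Shares of transcripts were computed from TPM. No group was compared and no test was made; edgeR 4.0.16 and DESeq2 1.42.0 served only for scaling factors on rounded expected counts. The labels give both animals the same donor identifier, read here as the strain. The 2-fold rule for comparing animals was run on simulated counts with planted changes. These counts varied by counting noise only, so the simulation does not cover variation between animals. The set, the further lists, the pairs and the thresholds were chosen with earlier results of these data known. Named were every member, of the further genes the 3 highest of each step and those under 1 TPM in both animals, and transcripts with 10% or more of a member's TPM in both animals (1 gene that this rule names is not reported here); genes that share words with members were named after their values were seen. Python 3.11.15, pandas 2.3.3, numpy 2.4.6, matplotlib 3.10.9 and R 4.3.3 were used.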

Additional observations from a re-analysis of the deposited data

How the results depend on the processing

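Of 37 expressed members, 32 passed at 5 TPM and 30 at 10 TPM; the count stayed 37 in the FASTQ-derived table, by posterior mean, on coding transcripts and in either animal alone. With only members at 1 TPM or more, the median rose to 69.4 TPM for uptake and 109 for the carnitine shuttle. Rescaled to nuclear protein-coding TPM, which were 37.8% and 33.3% of all TPM, the step medians were 120 (uptake), 9.37 (activation), 181 (carnitine shuttle), 1007 (beta oxidation), 108 (thioesterases) and 99.8 (malonyl-CoA control). Over coding transcripts only, an alternative chosen after seeing the data, they were 21.04 for uptake, 55.5 for the carnitine shuttle and 285 for beta oxidation; the FASTQ-derived table gave 55.8 for the carnitine shuttle. Beta oxidation had the highest median under each of these. With 2 animals, leaving out either gives back the median of the other, 338 or 377 for beta oxidation, so it is no separate check. Of 144 pair values under an alternative, 12 lay more than 1.5-fold from the reported ratio, and 2 turned sign: Acadl over Acadvl at 0.054 on coding transcripts and 0.014 for counts per kilobase. The number of pairs 2-fold apart was 13 or 14 throughout. With coding transcripts only, 19 of 23 members kept the same main transcript in both tables, fewer genes having a choice. The split of members between the animals was 18 higher and 19 lower, 17 and 20 with edgeR's or DESeq2's factors, 20 and 17 in the FASTQ-derived table, and 1 and 36 without centring. No paired analysis was possible because there is only 1 group. The lowest members rest on few counts: Slc27a6 on 9 and Cpt1c on 55 in each library.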
